A study of Mus musculus with 14 samples.

Results

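The Ms4a genes encode small membrane-spanning proteins used mostly by blood cells, and 6 of them were followed here in hematopoietic stem cells of mouse bone marrow. They were selected on their counts, as all genes of the count table whose symbol begins with Ms4a, apart from Ms4a2, that had at least 10 counts in 3 or more of the 14 libraries. Such a symbol was carried by 11 of the 24833 genes listed, and Ms4a3, Ms4a4b, Ms4a4c, Ms4a6b, Ms4a6c and Ms4a6d passed. The family was picked because several of its genes had been seen to be higher after 20 days of IL-1β, so its values at 20 days are a description and carry no test, and the IL-1β effect at 1 day, which did not enter the choice, was tested.

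The cells were sorted as LSK cells (Kit and Sca-1 present, lineage markers absent) that had CD150 but neither Flk2 nor CD48, a fraction enriched for stem cells but not pure, from C57BL/6 mice for which the labels give no genetic change. IL-1β, an inflammatory cytokine, had been injected into the peritoneum at 0.5 µg per mouse per day for 1 day (3 libraries) or 20 days (4 libraries), and PBS, the carrier, for 1 day (3 libraries) or 20 days (4 libraries). Each library was made from cells pooled over 3 to 5 mice and is labelled a biological replicate. Library totals ran from 21654896 to 29441947 counts, so that 3 counts were worth 0.102 to 0.139 CPM (counts scaled to a common library total), and CPM below that level rest on almost no reads.

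As background, MS4A3 was first described in human blood progenitors as HTm4, where it binds the phosphatase KAP (gene Cdkn3) and through it acts on the cyclin-dependent kinase CDK2, and later, in human leukemia cells, as a protein that speeds the uptake of the common β chain of the receptors for IL-3, IL-5 and GM-CSF. In mice Ms4a3 is used by granulocyte-monocyte progenitors and is known as the gene whose locus marks their offspring in lineage tracing. Ms4a4b was described in T cells, where the protein associates with the receptor GITR (gene Tnfrsf18). Ms4a6b, Ms4a6c and Ms4a6d belong to a branch used by myeloid cells, and Ms4a6d is known from macrophages. Stem cells of the sort used here are upstream of all these cell types.

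The 6 genes lie in the same region of chromosome 19, within 236.1 kb, and are all protein-coding (GRCm38, GENCODE M21). In the order of the chromosome, Ms4a4c spans 11404770 to 11427246, Ms4a4b 11443553 to 11467055, Ms4a6c 11469366 to 11482192 and Ms4a6b 11516512 to 11531256, all on the plus strand. Ms4a6d, at 11586604 to 11604849, and Ms4a3, at 11629496 to 11640851, follow on the minus strand. The annotation holds 18 Ms4a genes besides Ms4a2 in this cluster of 678.6 kb. Coding sequences were 91.7% identical between Ms4a4b and Ms4a4c, 85.4% between Ms4a6b and Ms4a6c, 81.2% between Ms4a6b and Ms4a6d and 79.0% between Ms4a6c and Ms4a6d. Ms4a3 stood furthest off, at 59.1 to 62.7% identity with the other 5.

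**Figure D1:**
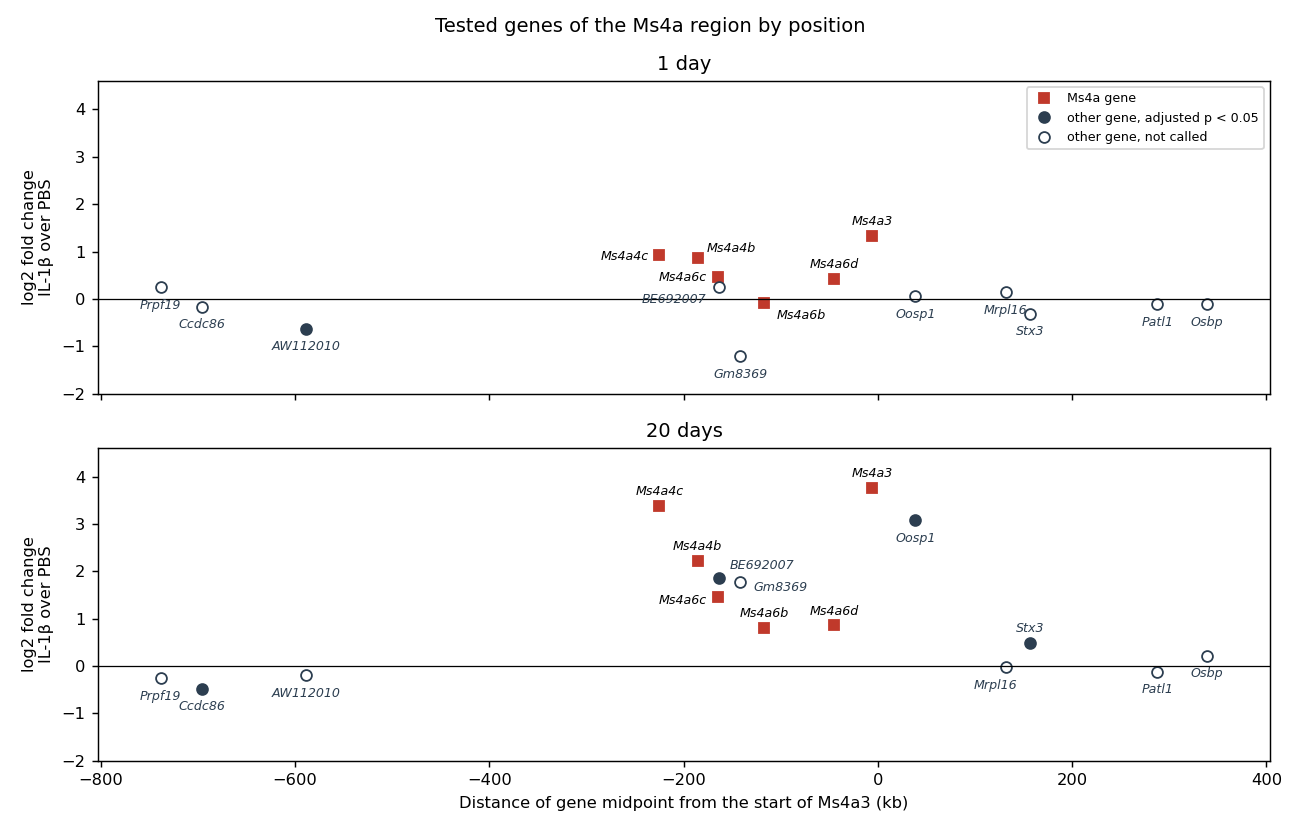
Positions of the Ms4a genes and of their tested neighbours along chromosome 19, drawn as distance in kb. The 6 genes followed here fall within 236.1 kb, with Ms4a6d and Ms4a3 on the minus strand.

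Such likeness matters for counts of reads of 100 bases, because a read that lies in a stretch shared by another gene cannot be placed. Of all exonic stretches of that length, none was shared with the transcripts of another gene in Ms4a3, Ms4a6b or Ms4a6d. The shared portion was 0.513% in Ms4a6c, 0.473% in Ms4a4b and 1.66% in Ms4a4c, whose shared stretches were with Ms4a4b. Stretches shared in full over 100 bases were therefore a small part of every member, and the Ms4a4c values carry the most doubt of this kind. Stretches that are nearly but not fully identical were not measured.

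The 300 bases around the annotated start (250 before and 50 after it) are shown for the 3 genes with the highest levels, to show which letters the control regions of the most abundant members have in common. They are RefSeq's, of GRCm38.p6, which held such a sequence for 5 of the 6 genes, all but Ms4a6d, and are printed 5′ to 3′ on the strand of the gene. For Ms4a6b and Ms4a4c the RefSeq start lies downstream of the GENCODE start given above, 11516512 and 11404770. All positions in these windows are from the RefSeq start. For Ms4a3 (chr19:11640802-11641101, minus strand) capitals mark the only match to the C/EBP letters. For Ms4a6b (chr19:11518309-11518608, plus strand) and Ms4a6c (chr19:11469118-11469417, plus strand) capitals mark the longest run of letters that both share.
Ms4a3: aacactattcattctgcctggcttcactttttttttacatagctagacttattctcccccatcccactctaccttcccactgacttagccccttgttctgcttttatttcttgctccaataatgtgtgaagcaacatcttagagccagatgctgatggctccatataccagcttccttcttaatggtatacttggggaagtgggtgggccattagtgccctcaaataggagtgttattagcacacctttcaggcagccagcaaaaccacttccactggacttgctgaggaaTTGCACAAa
Ms4a6b: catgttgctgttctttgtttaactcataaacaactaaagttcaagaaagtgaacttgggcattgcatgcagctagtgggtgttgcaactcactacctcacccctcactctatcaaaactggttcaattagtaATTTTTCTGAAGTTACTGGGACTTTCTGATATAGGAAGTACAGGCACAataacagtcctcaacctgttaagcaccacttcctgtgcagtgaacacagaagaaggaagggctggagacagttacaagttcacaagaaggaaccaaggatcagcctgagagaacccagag
Ms4a6c: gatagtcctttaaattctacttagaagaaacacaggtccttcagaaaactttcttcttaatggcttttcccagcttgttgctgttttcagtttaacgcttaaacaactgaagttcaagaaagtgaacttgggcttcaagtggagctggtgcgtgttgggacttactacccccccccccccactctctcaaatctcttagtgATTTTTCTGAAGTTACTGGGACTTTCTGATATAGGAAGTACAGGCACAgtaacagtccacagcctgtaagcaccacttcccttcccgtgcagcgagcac
The shared run of Ms4a6b and Ms4a6c was 48 bases long, began 118 bases before the start in Ms4a6b and 49 before it in Ms4a6c, and stood in 2 of 32851 promoters, these 2. Over their aligned parts the Ms4a6b and Ms4a6c windows were 85.3% identical and the Ms4a4b and Ms4a4c windows 81.9%, while Ms4a3 reached 52.7 to 63.4% with the other 4.

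The letters recognised by 6 factors or factor families of myeloid or inflammatory gene control were looked for on both strands of these windows. The C/EBP letters TTGCNNAA stood in 1 of the 5, 41 bases after the Ms4a3 start, and in 10.8% of all 32851 promoters of the same length. The AP-1 letters TGANTCA stood in 1 of the 5, 22 bases after the Ms4a4b start, and in 7.81% of all promoters. No window held the PU.1 letters GAGGAAGT (3.20% of all promoters), the NF-κB letters (GGG, any 2 bases, TTTCC; 1.63%), the interferon response letters (GAAA, any 2 bases, GAAA; 3.44%) or the STAT letters TTCNNNGAA (8.30%). No set of letters was thus held by more than 1 of the 5 windows, and a match is only a match of letters.

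One library stood apart and touches every result at 20 days. In IL-1β 20-day replicate 3 the summed level of 13 neutrophil genes was 1922 CPM, against 4.56 to 8.89 CPM in the other 3 IL-1β 20-day libraries and 5.27 to 7.66 CPM in the PBS 20-day libraries. Mpo and Elane, granule protein genes of early granulocyte precursors, had 541 and 149 CPM in that library, against at most 7.41 and 0.720 CPM in any other. The CPM and ratios of the Ms4a genes at 20 days are therefore given with and without it, and so are the counts of other genes called at 20 days. Of 8 tested neutrophil genes, 1 was called higher with IL-1β at 20 days, beside 3.94% of all tested genes. That gene, Lcn2, had a log2 fold change of 7.22 (edgeR adjusted p = 0.0108) and stayed called without replicate 3 (4.02, edgeR adjusted p = 0.0295). It had 1.76 to 3.16 CPM in the other 3 IL-1β 20-day libraries, against at most 0.304 CPM in the PBS 20-day libraries. The call ended in 2 of 14 fits that each left out 1 library. The libraries also fall into naming sets by their titles, "E060216" and "10k" at 1 day and "E061316" and an untagged set at 20 days, each with as many IL-1β as PBS libraries.

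Ms4a3 was low in every PBS library and higher in every IL-1β library. It had 15.8, 20.7, 41.1 and 20.2 CPM in the 4 IL-1β 20-day libraries, against 1.46, 2.84, 1.12 and 1.66 CPM in the 4 PBS 20-day libraries. At 1 day it had 3.78, 4.25 and 4.71 CPM in the IL-1β libraries and 1.83, 1.51 and 1.68 CPM in the PBS libraries. The groups did not overlap at either time, and the lowest IL-1β 20-day library was 3.36 times the highest of the other 10. Means were 24.5 ± 11.3 CPM with IL-1β and 1.77 ± 0.748 CPM with PBS at 20 days (SD, n = 4 each), a ratio of 13.8 and a fitted log2 fold change of 3.76, or 3.40 without IL-1β replicate 3. Replicate 3, the library with the high neutrophil sum, was the highest. Without it the IL-1β mean was 18.9 ± 2.67 CPM and the ratio 10.7. Within the naming sets the ratio was 8.50 in E061316 and 22.1 in the untagged set, which holds replicate 3.

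Ms4a6b was the member with the most counts in PBS libraries and had the smallest ratio of those without overlap at 20 days. It had 60.2, 65.4, 56.5 and 68.9 CPM in the IL-1β 20-day libraries, against 34.8, 42.8, 36.3 and 30.5 CPM in the PBS 20-day libraries. At 1 day the values were 30.5, 31.6 and 35.0 CPM with IL-1β and 35.2, 38.5 and 29.9 CPM with PBS. The 20-day groups were apart and the 1-day groups overlapped. The means at 20 days were 62.7 ± 5.49 CPM with IL-1β and 36.1 ± 5.09 CPM with PBS (SD, n = 4 each), a ratio of 1.74 and a log2 fold change of 0.80. Replicate 3 was here the lowest IL-1β library, and without it the IL-1β mean was 64.8 ± 4.37 CPM. The log2 change was 0.69 in one 20-day naming set and 0.91 in the other.

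Ms4a6c is its close relative, and its 4 IL-1β 20-day libraries lay close together. It had 24.6, 24.5, 27.2 and 25.2 CPM in the IL-1β 20-day libraries, against 8.96, 8.92, 10.7 and 8.22 CPM in the PBS 20-day libraries. At 1 day it had 13.02, 13.5 and 13.6 CPM with IL-1β and 8.40, 12.0 and 8.80 CPM with PBS. IL-1β and PBS libraries were apart at both times. The means at 20 days were 25.4 ± 1.28 CPM with IL-1β and 9.19 ± 1.04 CPM with PBS (SD, n = 4 each), a ratio of 2.76 and a log2 fold change of 1.46. Without replicate 3 the IL-1β mean was 24.8 ± 0.388 CPM and the ratio 2.70, and the ratios within the naming sets were 2.75 and 2.78. The gene BE692007 is annotated over Ms4a6c on the opposite strand, and since the library chemistry does not mark the strand their reads cannot be told apart.

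Ms4a4b, the gene described in T cells, was low in every library. It had 4.49, 5.25, 3.56 and 2.35 CPM in the IL-1β 20-day libraries, against 0.883, 1.20, 1.12 and 0.131 CPM in the PBS 20-day libraries. At 1 day it had 0.683, 1.86 and 1.13 CPM with IL-1β and 0.995, 0.992 and 0.241 CPM with PBS. The 20-day groups were apart, the 1-day groups overlapped, and PBS replicate 4 at 20 days was at the level that 3 counts give. The means at 20 days were 3.91 ± 1.25 CPM with IL-1β and 0.833 ± 0.486 CPM with PBS (SD, n = 4 each), a ratio of 4.70, or 4.84 without replicate 3. Its described partner GITR, Tnfrsf18, averaged 27.6 ± 3.02 CPM with IL-1β and 31.5 ± 5.68 CPM with PBS at 20 days, a log2 change of -0.19 that did not pass (edgeR adjusted p = 0.548).

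Ms4a4c passed the count threshold only through the group in which it was high. It had 12, 21, 15 and 18 counts in the IL-1β 20-day libraries and 0 to 5 counts in each of the other 10. Scaled, these were 0.431, 0.755, 0.651 and 0.705 CPM with IL-1β at 20 days, against 0, 0.0400, 0 and 0.219 CPM with PBS. The 20-day groups were apart, but 3 of the 4 PBS libraries lay below 3 counts. The 20-day groups summed to 66 counts with IL-1β and 6 counts with PBS, a ratio of mean CPM of 9.83, or 9.75 without replicate 3. At 1 day it had 5, 2 and 5 counts with IL-1β and 1, 4 and 1 counts with PBS, too few to compare the levels.

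Ms4a6d was the member whose IL-1β and PBS libraries overlapped at 20 days. It had 1.33, 1.87, 2.43 and 1.41 CPM in the IL-1β 20-day libraries, against 1.10, 1.96, 0.474 and 0.699 CPM in the PBS 20-day libraries. At 1 day it had 1.37, 1.36 and 1.64 CPM with IL-1β and 0.677, 1.36 and 1.20 CPM with PBS, groups that were apart by less than the printed digits. The means at 20 days were 1.76 ± 0.507 CPM with IL-1β and 1.06 ± 0.655 CPM with PBS (SD, n = 4 each), a ratio of 1.66, or 1.45 without replicate 3. The ratio was 1.04 in the E061316 set and 3.27 in the untagged set, so the difference lay in the untagged set, which holds both replicate 3 and the PBS libraries with the lowest values.

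**Figure D2:**
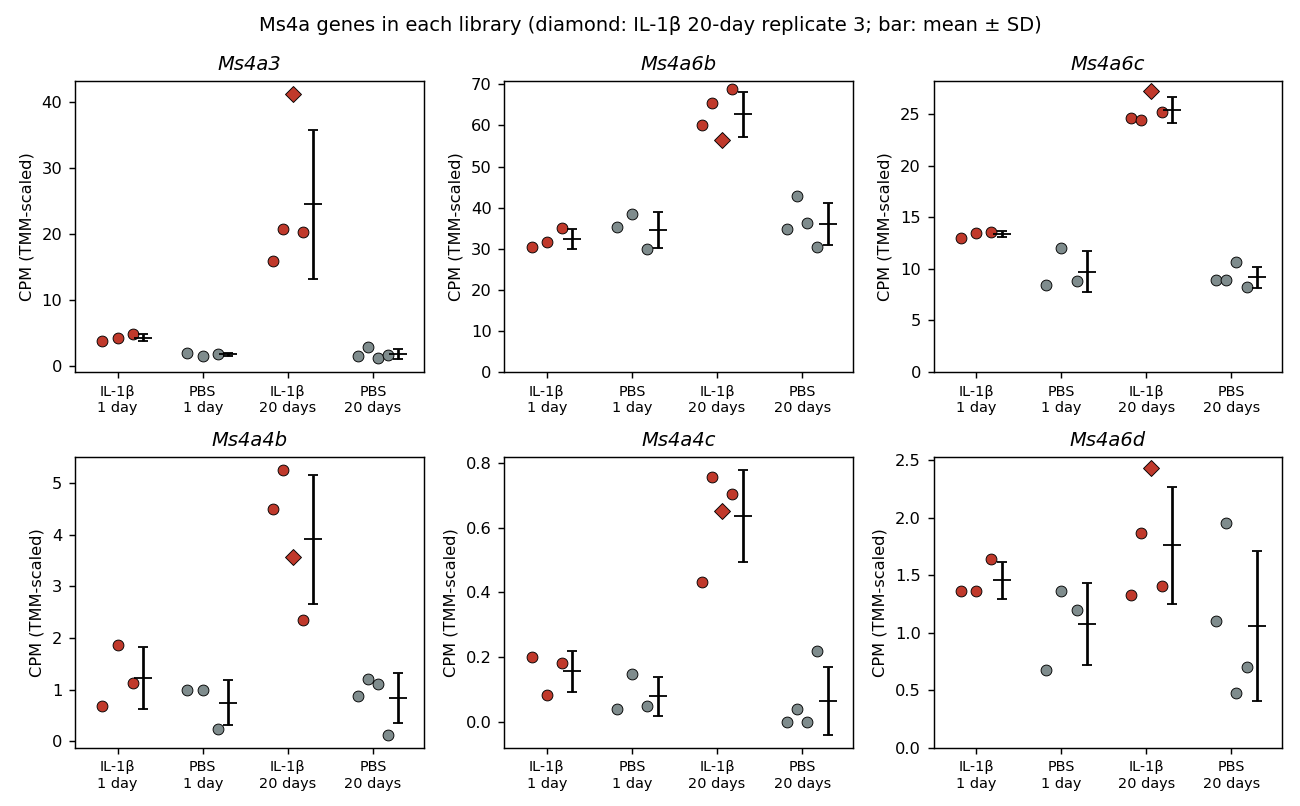
CPM of the 6 Ms4a genes in each library, with IL-1β left of PBS at each duration. Points are libraries, and IL-1β 20-day replicate 3 is marked. In 5 of the 6 genes the 4 IL-1β 20-day libraries lie above all 4 PBS 20-day libraries, and in Ms4a6d they overlap.

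The other 5 genes fell short of the threshold. Ms4a7, a gene of macrophages, reached 10 counts in 1 library, with at most 19 and with 71 in all. Ms4a1, which encodes the B cell antigen CD20, also reached 10 counts in 1 library, with at most 24, and had none in 10 libraries. Ms4a15, Ms4a4a and Ms4a14 had at most 8, 5 and 2 counts in any library. Their levels lay at or near the depth limit and give no comparison. Just inside the threshold lay Ms4a4c with 4 libraries and Ms4a4b with 12, while the other 4 members had 10 counts or more in all 14.

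The 1-day comparison asked what a single day of IL-1β did to these genes. In the edgeR quasi-likelihood test over all 15466 tested genes, 0 of the 6 members passed an adjusted p of 0.05, where 4.35% of all tested genes passed, 2.52% higher and 1.83% lower. At an unadjusted p under 0.05 there were 2, Ms4a3 and Ms4a6c, beside 2900 of the 15466 tested genes. With DESeq2 1 passed, Ms4a3, beside 1398 of the 15466. Ms4a3, Ms4a6c and Ms4a6d were higher with IL-1β without overlap between the groups, as were 8.75% of all tested genes; another 8.91% were lower without overlap, which makes 17.7% in either direction. Estimates were above 0 in 5 of 6 members, with a median log2 fold change of 0.66 beside -0.01 over all tested genes. Nothing is read from this count or median, since they include Ms4a4c, which had too few counts at 1 day to compare.

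Ms4a3 came nearest to the threshold at 1 day. Its mean was 4.25 ± 0.468 CPM with IL-1β and 1.67 ± 0.163 CPM with PBS (SD, n = 3 each), a log2 fold change of 1.34 ± 0.38 (SE), higher in 3 of 3 libraries, with an edgeR adjusted p of 0.0596. Over the alternatives that adjusted p lay between 0.00949 and 0.205. It passed with DESeq2 (0.00949) and in edgeR when IL-1β 20-day replicate 3 (0.0231) or PBS 20-day replicate 2 (0.0264), 3 (0.0467) or 4 (0.0445) was left out. These are libraries of the other duration, which share only the estimate of the spread, and the log2 change itself stayed between 1.27 and 1.44 in all fits. The ratio was 2.80 in the 10k set and 2.41 in the E060216 set.

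Ms4a6c averaged 13.4 ± 0.290 CPM with IL-1β and 9.74 ± 1.98 CPM with PBS at 1 day (SD, n = 3 each). Its log2 fold change was 0.46 ± 0.16 (SE; edgeR adjusted p = 0.135, and 0.0804 to 0.397 over the alternatives), which did not pass. Ms4a6b was at 32.4 ± 2.34 CPM with IL-1β and 34.5 ± 4.32 CPM with PBS, a log2 change of -0.09 ± 0.14 (adjusted p = 0.799), and its sign differed between the naming sets, with 0.23 in 10k and -0.25 in E060216. The scarce members had wide errors, with log2 changes of 0.87 ± 0.63 for Ms4a4b (adjusted p = 0.512), 0.93 ± 1.15 for Ms4a4c (0.739) and 0.43 ± 0.52 for Ms4a6d (0.733). None of these 3 was called at 1 day.

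At 20 days, for which the family was picked, 5 of 6 members were higher with IL-1β without overlap, where 5.39% of all tested genes were (4.99% lower, 10.4% in either direction). Of all tested genes, 3.94% passed the edgeR threshold higher at 20 days (3.52% lower, 7.46% in either direction). No edgeR call is given for the 6 members here, since the family was picked for this contrast. The median log2 fold change of the 6 was 1.84, beside -0.00034 over all tested genes. The count without overlap and this median describe the choice, and nothing is read from them. The PBS libraries of 20 days and of 1 day overlapped in all 6 genes, with ratios of mean CPM, 20 days over 1 day, of 0.826 to 1.12.

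**Figure D3:**
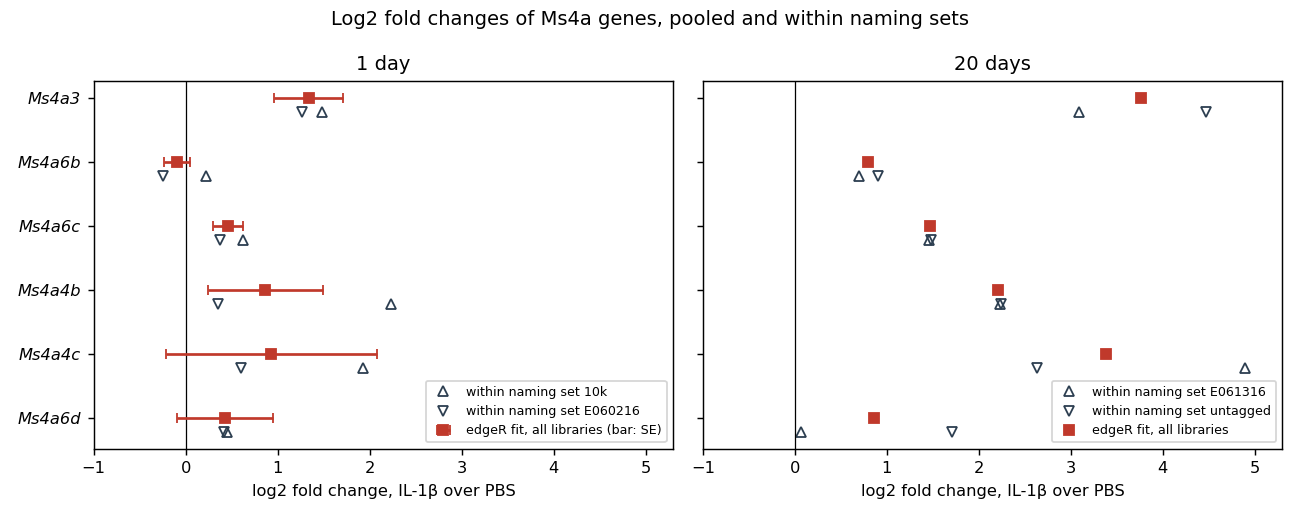
Fitted changes of the 6 Ms4a genes (log2, IL-1β over PBS), with 20 days and 1 day apart and standard errors as bars at 1 day. The 20-day values are the ones for which the family was picked. Ms4a3 is at 3.76 at 20 days and 1.34 at 1 day, Ms4a4c, with its wide error, at 3.38 and 0.93, and Ms4a6b lies near 0 at 1 day.

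Per length the members fell into an abundant and a scarce group, and Ms4a3 was in the abundant one after 20 days of IL-1β. The length is that of all annotated exons together, 4485 bases for Ms4a6b, 2050 for Ms4a6c, 1884 for Ms4a3 and 8780 for Ms4a4b. Which transcripts the cells used was not measured, so orders and shares between genes rest on these lengths and are rough. In CPM per kb of exon, Ms4a6b had 13.99 ± 1.22, Ms4a3 12.99 ± 6.01 and Ms4a6c 12.4 ± 0.626 in the IL-1β 20-day libraries (SD, n = 4). These 3 levels did not differ beyond their spread. Without replicate 3, Ms4a3 had 10.04 ± 1.42 CPM per kb and stood last of the 3, below Ms4a6b with 14.45 ± 0.974 and Ms4a6c with 12.08 ± 0.189 (n = 3). Ms4a6d followed in all 4 libraries with 1.01 ± 0.292, Ms4a4b with 0.446 ± 0.143 and Ms4a4c with 0.363 ± 0.0816 CPM per kb, where the last pair did not differ beyond its spread. In the PBS 20-day libraries the order was Ms4a6b with 8.05 ± 1.14, Ms4a6c with 4.48 ± 0.505, Ms4a3 with 0.939 ± 0.397 and Ms4a6d with 0.610 ± 0.377 CPM per kb (SD, n = 4). There the levels of Ms4a3 and Ms4a6d did not differ beyond their spread, nor did those of Ms4a4b, 0.0948 ± 0.0554, and Ms4a4c, 0.0369 ± 0.0596.

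At 1 day Ms4a3 was the third in order in both groups. With IL-1β the levels were 7.22 ± 0.521 CPM per kb for Ms4a6b, 6.52 ± 0.142 for Ms4a6c and 2.25 ± 0.248 for Ms4a3. With PBS at 1 day they were 7.70 ± 0.964, 4.75 ± 0.965 and 0.888 ± 0.0865 CPM per kb for the same genes (SD, n = 3 each). The 6 members together came to 41.2 ± 6.17 CPM per kb with IL-1β (38.3 ± 2.54 without replicate 3) and 14.2 ± 1.86 with PBS at 20 days, and to 17.1 ± 0.986 with IL-1β and 14.1 ± 1.89 with PBS at 1 day. Ms4a3 made up 30.5 ± 8.98% of that sum with IL-1β and 6.51 ± 2.09% with PBS at 20 days, and 13.2 ± 0.707% with IL-1β and 6.42 ± 1.29% with PBS at 1 day. In replicate 3 alone its share was 43.8%, against 23.8 to 27.7% in the other 3 IL-1β 20-day libraries. Ms4a6b made up 34.6 ± 6.31% with IL-1β and 56.6 ± 0.687% with PBS at 20 days, so the makeup of the family's RNA differed as well as its amount. In bulk RNA, more cells that use a gene and more RNA of it per cell cannot be told apart.

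**Figure D4:**
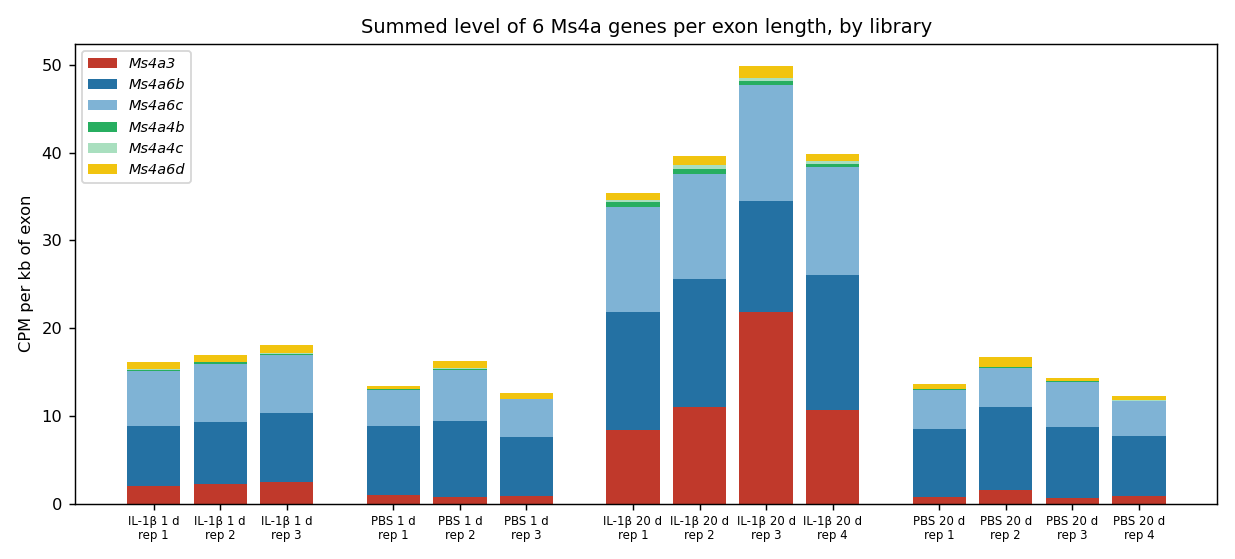
Summed level of the 6 Ms4a genes in CPM per kb of exon, stacked by gene for each library, with IL-1β left of PBS at each duration. The sums average 41.2 with IL-1β and 14.2 with PBS at 20 days, and the Ms4a3 portion is the one that differs most.

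The genes whose log2 CPM over the 14 libraries was most like that of each member were taken, 5 per member, as a description. For Ms4a3 they were Epor, the erythropoietin receptor (Pearson r = 0.956), Hbb-bt, a β-globin gene (0.953), Ms4a6c (0.944), Il10ra, an IL-10 receptor chain (0.934), and Fcgr2b, an inhibitory Fc receptor (0.931). Without replicate 3 the same 5 had r of 0.901 to 0.978, and Hbb-bt came first. Ms4a6c was most like Ms4a3, then Cd53, a tetraspanin of leukocytes (0.934), Dhrs3 (0.931), Samsn1 (0.930) and Man2b1 (0.929). Ms4a3 and Ms4a6c were thus in each other's lists over 14 libraries (ranked 11 and 7 without replicate 3), although Ms4a6c shares its coding sequence more closely with Ms4a6b.

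For Ms4a6b the 5 were Pafah2 (0.948), Rhag (0.946), Itgb2, the β2 integrin chain of leukocytes (0.940), Slc28a2 (0.938) and Lyn, a Src-family kinase (0.938). The scarce members had lower values, led by Fam46a for Ms4a4c (0.942), Ddx19b for Ms4a4b (0.924) and Synpo2 for Ms4a6d (0.835). All points share libraries, depth and the 4 groups, and any gene that is high in the IL-1β 20-day group gives a high r. With the group means taken out, r over the 14 libraries was -0.118 for Ms4a3 with Ms4a6c, 0.358 for Ms4a6b with Ms4a6c and -0.595 for Ms4a4b with Ms4a4c. The likeness of Ms4a3 and Ms4a6c therefore lay between the groups and not among the libraries within them.

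The genes around the family were read next. Of 10 tested genes of other names within 500 kb of the 6, 3 were higher and 1 lower with IL-1β at 20 days by edgeR (2 and 1 without replicate 3), beside 3.94% and 3.52% of all tested genes, and their median log2 fold change was 0.10, with a range of -0.48 to 3.08. The 3 higher include BE692007, which overlaps Ms4a6c, a member picked for this contrast. Reads of the overlap cannot be told apart, so BE692007 is not a separate neighbour in that count. The 4 that passed are named because they passed. Oosp1, 26.6 kb beyond Ms4a3, averaged 1.27 ± 0.333 CPM with IL-1β and 0.146 ± 0.0483 CPM with PBS (SD, n = 4 each), a log2 fold change of 3.08 ± 0.64 (SE; edgeR adjusted p = 0.00996), and its call held when any 1 of the 14 libraries was left out. Its PBS mean was near the level of 3 counts, 0.102 to 0.139 CPM, so the size of that change is uncertain. BE692007, over Ms4a6c, averaged 3.26 ± 0.828 CPM with IL-1β and 0.880 ± 0.422 CPM with PBS, a log2 fold change of 1.87 ± 0.45 (adjusted p = 0.0208), and its call ended in 4 of the 14 fits without 1 library.

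The other 2 calls were small. Stx3 rose by a log2 fold change of 0.48 ± 0.13 (edgeR adjusted p = 0.0396), a call that ended in 10 of 14 fits without 1 library, among them the fit without replicate 3 (0.102). Ccdc86 fell, with a log2 fold change of -0.48 ± 0.11 (edgeR adjusted p = 0.0173), a call that ended in 3 of 14. At 1 day 1 of the 10 passed, AW112010, which was lower, with -0.63 (edgeR adjusted p = 0.0239), a call that ended in 6 of 14 fits without 1 library, with the replicate block (0.0751) and without the naming-set term (0.0834). The other 5 neighbours passed at neither time, among them Gm8369, which lies between the members and had a log2 change of 1.77 at 20 days (adjusted p = 0.415).

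The genes that act with Ms4a3 were followed as a list of 10, of which 9 were tested; its genes, like those of all lists here, were chosen with earlier results of these data known. At 20 days 4 of the 9 were higher with IL-1β (3 without replicate 3), beside 3.94% of all tested genes, with a median log2 fold change of 0.38. At 1 day 3 of the 9 were higher, beside 2.52% of all tested genes, with a median of 0.45. Cdkn3, the phosphatase that MS4A3 binds, averaged 15.6 ± 2.39 CPM with IL-1β and 9.34 ± 0.501 CPM with PBS at 20 days, a log2 fold change of 0.74 ± 0.15 (SE; edgeR adjusted p = 0.00955). At 1 day it averaged 26.1 ± 1.81 CPM with IL-1β and 15.8 ± 3.06 CPM with PBS, 0.73 ± 0.18 (edgeR adjusted p = 0.0292), a call that ended in 3 of 14 fits without 1 library and with a replicate block (0.0728). Cdkn3 thus rose at both times by about the same amount, whereas the Ms4a3 estimate was larger at 20 days; these differences between times were not tested.

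Cyclin A2, Ccna2, a partner of CDK2, averaged 316.2 ± 60.5 CPM with IL-1β and 158.9 ± 9.20 CPM with PBS at 1 day, a log2 fold change of 0.97 ± 0.11 (edgeR adjusted p = 0.00036). At 20 days its log2 fold change was 0.39 ± 0.10 (edgeR adjusted p = 0.0243), a call that ended in 4 of 14 fits without 1 library, among them the fit without replicate 3 (0.0899), and without the naming-set term (0.169). Cyclin E1, Ccne1, rose at 1 day to 29.2 ± 0.905 CPM with IL-1β, against 13.6 ± 2.86 CPM with PBS (edgeR adjusted p = 0.0342), a call that ended in 6 of 14 such fits, and had a log2 change of -0.12 at 20 days (adjusted p = 0.855). Cdk2 itself passed at neither time, with log2 changes of 0.10 at 20 days and 0.25 at 1 day (edgeR adjusted p = 0.602 and 0.194), nor did Ccne2, with -0.17 and 0.60 (0.637 and 0.0886).

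Both β chain genes of the receptors for IL-3, IL-5 and GM-CSF rose at 20 days. Csf2rb, the common β chain, averaged 47.3 ± 6.87 CPM with IL-1β and 28.0 ± 2.86 CPM with PBS (SD, n = 4 each), a log2 fold change of 0.75 ± 0.12 (edgeR adjusted p = 0.00209). Csf2rb2, the mouse β chain used with IL-3, averaged 22.4 ± 1.15 CPM with IL-1β and 9.69 ± 1.03 CPM with PBS, a log2 fold change of 1.21 ± 0.15 (edgeR adjusted p = 0.00024). Both calls held when any 1 of the 14 libraries was left out, and neither gene passed at 1 day, with 0.45 and 0.33 (edgeR adjusted p = 0.0986 and 0.333). The α chains did not pass, with log2 changes at 20 days of 0.38 for Il3ra and -0.16 for Csf2ra (edgeR adjusted p = 0.135 and 0.57), and Il5ra was too low to test.

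Markers of other cells that use Ms4a genes moved with the 20-day result in part. Of 16 tested genes of granulocyte-monocyte progenitors, the cells known for Ms4a3, 7 were higher with IL-1β at 20 days by edgeR, beside 3.94% of all tested genes, and the median log2 fold change was 0.91 at 20 days and 0.00 at 1 day. Without replicate 3, 5 were higher at 20 days and the median was 0.32. Plac8 had 112.7 ± 11.2 CPM with IL-1β and 45.3 ± 12.8 CPM with PBS (log2 1.35 ± 0.13, edgeR adjusted p = 2.55e-05), and Nkg7 85.6 ± 8.59 CPM with IL-1β and 40.8 ± 6.10 CPM with PBS (1.07 ± 0.14, edgeR adjusted p = 0.000292). The summed list was at 2097 CPM in replicate 3 and 1038 to 1181 CPM in the other 3 IL-1β 20-day libraries, against 701 to 927.6 CPM in the PBS 20-day libraries. In those other 3 IL-1β libraries Mpo, a defining gene of these progenitors, had 0.971 to 1.10 CPM, against 1.28 to 4.09 CPM in the PBS 20-day libraries. The part of such cells in the Ms4a result was not tested.

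Other marker lists moved to differing degrees. The 17 monocyte and macrophage genes, cells that use the Ms4a6 branch, summed to 481.4 to 530.9 CPM in IL-1β 20-day libraries other than replicate 3, which had 710.2 CPM, and to 453.9 to 524.9 CPM in PBS 20-day libraries, with Cd68 higher and C1qa and C1qb lower by edgeR. The calls of C1qa and C1qb ended in 10 and 11 of 14 fits without 1 library, among them the fit without replicate 3. The monocyte and macrophage sum was mainly 1 gene. Most of that sum was Lyz2, at 503.7 CPM with IL-1β and 451.6 CPM with PBS on average at 20 days. The 8 T and NK cell genes in the table summed to 50.8 to 61.4 CPM with IL-1β and 55.3 to 76.2 CPM with PBS at 20 days, with Cd3g at most at 0.0719 CPM. Most of it was Tnfrsf18 and Lck, at 27.6 and 14.1 CPM with IL-1β and 31.5 and 18.4 CPM with PBS. The 9 B cell genes in the table summed to 53.8 to 64.5 CPM with IL-1β and 44.9 to 54.8 CPM with PBS at 20 days, mostly Cd79b, at 53.7 and 46.4 CPM. The monocyte, T cell and B cell sums thus followed these few genes and do not measure those cells. The mast cell and basophil genes summed to 41.5 CPM in replicate 3 and 9.09 to 11.2 CPM in the other IL-1β 20-day libraries, against 4.55 to 8.38 CPM with PBS, and Fcer1a and Hdc, 2 of 4 tested, were higher. Without replicate 3, which had 14.6 CPM of Hdc, Fcer1a stayed called (edgeR adjusted p = 0.0248) and Hdc did not (0.255). Of the genes excluded by the sort, Flt3 and Cd48, both were called higher at 20 days, but without replicate 3 Flt3 stayed called (edgeR adjusted p = 0.00317) and Cd48 did not (0.111). Their sum was 84.2 to 148.2 CPM with IL-1β and 43.9 to 65.6 CPM with PBS. Their part in the Ms4a result was not tested. The label of the sort held in so far as Slamf1, which encodes CD150, was at 100.4 ± 11.1 CPM with IL-1β and 58.0 ± 13.7 CPM with PBS and Kit at 1203 ± 66.1 CPM with IL-1β and 1142 ± 398.7 CPM with PBS at 20 days.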

How the data were processed

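RNA was sequenced from sorted bone marrow cells of 14 libraries; per the labels' protocols the cDNA was amplified with SMARTer chemistry, made into Nextera XT libraries and read from a single end over 100 bases. The counts used were deposited by the authors as whole numbers for each gene symbol, unnormalised. Per the submitters' processing notes the build was GRCm38.p4 and the tools included STAR 2.4.2a and HTSeq 0.6.1, with no role stated; annotation, filters and strandedness of counting: not given in the sources used here. Amplified reads carry no molecular identifiers, so limits given as 3 counts cover counting error only.

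Counts were fitted with edgeR 4.0.16 in R 4.3.3: TMM factors, filterByExpr (minimum count 10; 15466 of 24833 genes, all 6 members among them), two-sided quasi-likelihood test with robust settings, and adjustment by Benjamini and Hochberg over all tested genes at 0.05. The model held all 14 libraries, the 4 naming sets and an IL-1β effect per duration (8 residual degrees of freedom). Standard errors of log2 fold changes are the estimate divided by the root of F, an approximation. CPM are scaled by TMM factors, except sums over marker lists, which use library totals. Ratios are of mean CPM; CPM per kb divides by the exonic length in GENCODE M21. The fit was checked on simulated data.

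The named genes are all Ms4a symbols, the 5 genes most like each member by Pearson correlation of log2 CPM (prior count 2; predicted genes left out), from each marker list up to 3 with the smallest p, and all genes of the Ms4a3 partner list. Outside this rule, Mpo, Elane, Kit, Tnfrsf18, Cd3g, Lyz2, Lck, Cd79b and the 6 named neighbours were chosen after their values were seen. Members and lists were chosen with earlier results of these data known. Promoters came from RefSeq (GRCm38.p6), matched by symbol; coding identities and windows were aligned with Biopython 1.88. Alternatives were other scaling factors, no filter, no naming-set term, a replicate block, DESeq2 1.42.0, each naming set alone and leaving out each library; counts over marker lists and neighbours and the summed Ms4a level without IL-1β 20-day replicate 3 were added after seeing the data. Only results for the Ms4a family and the genes set beside it are given.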

Additional observations from a re-analysis of the deposited data

Results flagged for a closer look

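In 30 group values, 1 library stood further from the rest than Dixon's 95% critical value of 0.829 for 4 samples in 3; chance alone gives about 1 in 20, or 1.5. All 3 concern IL-1β 20-day replicate 3, and none is an Ms4a gene. The neutrophil list had a gap ratio of 0.998, with 1922 CPM in that library against 4.56 to 8.89 CPM in the other 3. The mast cell and basophil list had a gap ratio of 0.936, with 41.5 CPM in that library. The granulocyte-monocyte progenitor list had a gap ratio of 0.865, with 2097 CPM in that library against 1038 to 1181 CPM in the other 3. Among the members, Ms4a3 was highest in the same library, at 41.1 CPM, and Ms4a6b was lowest there, at 56.5 CPM; neither gap reached the critical value.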

How the results depend on the processing

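All 6 Ms4a genes were above 0 at 20 days under every alternative run, with log2 fold changes in fits of all genes of 3.40 to 4.16 for Ms4a3, 0.70 to 0.88 for Ms4a6b, 1.39 to 1.54 for Ms4a6c, 1.88 to 2.83 for Ms4a4b, 2.93 to 5.16 for Ms4a4c and 0.54 to 1.21 for Ms4a6d. The order of Ms4a3 and Ms4a4c at 20 days, 3.76 and 3.38, turned without IL-1β replicate 3 (3.40 and 3.57), without PBS replicate 4 (3.67 and 5.16) and, narrowly, in the replicate block (3.75 and 3.77), and at 1 day without PBS replicate 2 (1.28 and 1.76) or IL-1β replicate 2 (1.31 and 1.34). Within the sets it turned in E061316 (3.09 and 4.89) and 10k (1.49 and 1.93), where Ms4a4b had 2.24. At 1 day the number of members called was 0 in the replicate block and 1 in DESeq2, and 0 to 1 with 1 library left out. The sign of Ms4a6b at 1 day turned in the 10k naming set alone, with 0.23; the cause was not tested. The number of all genes called at 1 day was 672, against 290 without the naming-set term, 383 with the replicate block, 1398 with DESeq2 and 228 to 1244 with 1 library left out. At 20 days it was 1154, against 525, 672, 1809 and 648 to 1156 in the same order. Of the 1-day calls 57.9% were higher, and 46.3% with upper-quartile factors. Same-numbered IL-1β and PBS libraries deviated with correlations of -0.0297 to 0.184 at 1 day and 0.018 to 0.274 at 20 days, so the numbers were not taken as pairs; the 10k libraries carry no number in the labels and were numbered 3 here, so the value of 0.184 and their place in the replicate block rest on an assigned number. Depth limits Ms4a4b, Ms4a4c and Ms4a6d most.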
